A study of Rattus norvegicus with 66 samples.

Results

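The transcripts described here are those of 10 circadian clock genes, Arntl, Clock, Per1, Per2, Per3, Cry1, Cry2, Nr1d1, Nr1d2 and Dbp, read from 37777 gene entries in the count files by their gene symbol. Each symbol had a single entry, and every gene was counted in every pup. Their levels were followed in the dorsal hippocampus of Long Evans rat pups on postnatal day 6, over all 13 groups and against the clock time at which each pup was dissected. The tissue came with a little of the neocortex lying beside it.

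The 66 libraries came from 64 pups, 41 males and 23 females, of 44 litters. One male and one female pup had a pair of libraries each, which were summed. Pups of the CONF groups were feeding controls, 4 males and 5 females, and pups of the CONSC groups were controls whose dams were injected subcutaneously with vehicle (saline in the labels, dimethyl sulfoxide in the methods), 5 males and 5 females. Aroclor 1254 (Aro), a mixture of polychlorinated biphenyls, and bisphenol A (BPA), a plasticizer, were given to the dam in chow from before mating until the pups were taken. The Aro groups received 0.5 mg/kg (4 males) or 5 mg/kg (6 males and 5 females), and the BPA groups 0.5 mg/kg (4 males) or 5 mg/kg (7 males and 4 females). Chlorpyrifos (CPF), an organophosphate insecticide, was injected subcutaneously into the dam during pregnancy and lactation at 1 mg/kg (4 males) or 3 mg/kg (7 males and 4 females). Females were sequenced for the controls and the higher doses only. In all groups the pups were exposed through the dam, and 2 pups of one litter may stand in different sex groups (18 litters gave both sexes). The study speaks of an RNA-seq assay of the females apart from that of the males, so that sex and assay cannot be told apart in any value below.

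The circadian clock is a loop of transcription and feedback found in most cells. CLOCK and ARNTL (also BMAL1) bind DNA as a pair and switch on the Per and Cry genes, whose proteins return to the nucleus and hold back that pair. The same pair drives Nr1d1 and Nr1d2, whose REV-ERB proteins repress Arntl, and Dbp, a transcription factor that carries the rhythm to output genes. In the adult rodent brain the transcripts of most of these genes rise and fall over the day. In the hippocampus Per1 and Per2 also respond to neuronal activity and to glucocorticoids. The time of dissection is therefore a variable against which their levels can be read.

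Windows of DNA before the transcription start are shown for Nr1d1, Arntl and Per2, each of which holds a match to a motif of this loop. The windows of Per1, Per3, Dbp and Clock held no match and are not printed, although results below turn on some of these genes too. The counts were made on the build Rnor_6.0, and the windows were matched by gene symbol. They are the 250 bases before the annotated transcription start in the rat assembly GRCr8, as given by RefSeq, printed from 5' to 3' on the gene's own strand in lower case, and capitals mark motif matches. Nr1d1 has a pair of annotated starts, and the printed windows lie at chr10:84231813-84232062 (minus strand) and chr10:84229455-84229704 (minus strand). The Arntl window lies at chr1:176766078-176766327 (plus strand) and the Per2 window at chr9:99496994-99497243 (minus strand).
Nr1d1, first start: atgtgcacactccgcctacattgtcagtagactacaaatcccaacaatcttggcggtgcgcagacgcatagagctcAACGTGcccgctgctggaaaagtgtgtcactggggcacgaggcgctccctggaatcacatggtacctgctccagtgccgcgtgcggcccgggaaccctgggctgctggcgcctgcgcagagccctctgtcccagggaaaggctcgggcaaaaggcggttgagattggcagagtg
Nr1d1, second start: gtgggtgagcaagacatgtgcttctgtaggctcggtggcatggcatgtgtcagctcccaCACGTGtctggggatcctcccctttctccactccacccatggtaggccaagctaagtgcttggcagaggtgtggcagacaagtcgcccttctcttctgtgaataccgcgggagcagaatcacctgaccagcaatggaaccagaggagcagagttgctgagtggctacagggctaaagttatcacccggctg
Arntl: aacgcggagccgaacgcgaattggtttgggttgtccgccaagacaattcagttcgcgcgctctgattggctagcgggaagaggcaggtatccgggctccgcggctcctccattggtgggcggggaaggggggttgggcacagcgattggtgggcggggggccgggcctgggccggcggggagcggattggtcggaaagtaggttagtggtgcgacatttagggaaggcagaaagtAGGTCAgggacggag
Per2: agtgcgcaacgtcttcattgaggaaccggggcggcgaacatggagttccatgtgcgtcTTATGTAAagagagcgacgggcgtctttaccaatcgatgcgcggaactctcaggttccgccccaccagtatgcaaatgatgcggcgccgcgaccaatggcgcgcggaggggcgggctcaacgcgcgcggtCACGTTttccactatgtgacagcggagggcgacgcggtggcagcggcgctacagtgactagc

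Motifs were searched in the 250 bases before each start, the stretch printed above. Such windows were found for 9 of the 10 genes, in 11 windows, and Cry1 was not matched. The E-box CACGTG, the site of the CLOCK and ARNTL pair and its own reverse complement, was found in 1 of the 9 genes, at the second start of Nr1d1, and in 5.59% of all 33469 windows. The variant CACGTT was found on either strand in Per2, Cry2 and the first start of Nr1d1, against 4.07% of all windows. The half-site AGGTCA, bound by REV-ERB and ROR receptors, was found in Arntl, 15 bases before its start, and in Nr1d2, against 14.1% of all windows. The D-box TTATGTAA, the site of DBP and its relatives, was found in Per2 alone among the 9 and in 0.828% of all windows. The cyclic AMP response element TGACGTCA was in none of the 9 and in 1.59% of all windows. Both strands were searched for each motif and no matches in these genes overlapped. The matches describe these windows only.

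Total counts per pup ran from 10644138 to 86206550, with a median of 22369136. The fewest counts behind any value of these genes were 94, for Per3 in one male, and the fewest behind Cry2 were 1240. The labelled times, written as hour and minute, ran from 9.45 to 15.45, which is 2.75 to 8.75 hours after lights on. In decimal hours their median was 11.06 h and their SD 1.01 h. All pups but one were dissected by 13.20, and 11 pups, 8 of them male, fell outside the window of 10.30 to 13.20 stated in the methods. The CPF3 female labelled 43-3x and the CONF female labelled N4-3x stood apart from their groups in several of these genes. Several tests are given with and without them, but group means and ranges are given with them only. Of the hippocampal neuron markers, Prox1 had a median over pups of 104 CPM (a gene's counts scaled to a fixed total per pup) and Neurod6 of 129 CPM. In the same list the median was 26.7 CPM for Nr3c2 and 2.565 CPM for Zbtb20, while Fibcd1 was at 0 in every pup. Markers of neighbouring tissue were found too. In the thalamus list medians ran from 9.15 CPM for Gbx2 to 382 CPM for Tcf7l2. In the choroid plexus list they ran from 0 CPM for Otx2 to 2281 CPM for Ttr. In bulk tissue a smaller share of a cell type and less RNA per cell cannot be told apart.

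The activators are Arntl and Clock. Arntl ranged from 36.4 to 59.0 CPM over the 64 pups with a median of 44.1, and its group means ran from 39.7 CPM in Aro5 females to 48.8 in Aro5 males. Clock ranged from 44.8 to 76.3 CPM with a median of 59.2, and its group means from 50.3 in Aro0.5 males to 65.0 in Aro5 males. Their highest values were 1.62 and 1.70 times their lowest over all pups, and 1.60 and 1.65 times in males.

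The repressors are the Per and Cry genes. Per1 ran from 22.1 to 69.5 CPM (median 39.1), Per2 from 14.7 to 42.8 CPM (median 22.4) and Per3 from 6.80 to 23.2 CPM (median 12.9), each in CPM and not compared with one another for want of a length scale. The group with the highest mean was CPF3 females for all of them, at 50.5 CPM for Per1, 29.4 for Per2 and 17.7 for Per3. Cry1 ran from 13.5 to 30.9 CPM and Cry2 from 102 to 178 CPM, with the highest group mean again in CPF3 females. In the 41 males the highest values of Cry1 and Cry2 were 1.49 and 1.51 times the lowest, and those of Per1, Per2 and Per3 2.01, 2.02 and 3.41 times. In the pup 43-3x of the CPF3 females Per1 was at 69.5 CPM, Per2 at 42.8, Cry1 at 30.9 and Cry2 at 178, the highest value of all 64 pups for each of them. The high means of that group rest in part on this pup. The group's medians were 45.8 CPM for Per1, 25.2 for Per2, 20.7 for Cry1 and 142 for Cry2. For Cry1 the CPF1 males had a higher median, 21.8 CPM.

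The feedback and output genes completed the set. Nr1d1 ran from 12.7 to 65.5 CPM (median 26.5), with group means from 18.4 in BPA0.5 males to 39.6 in CPF3 females. Its highest value was 5.17 times its lowest over all pups, the widest of the 10 genes, and came from a CPF3 female. In the 41 males it was 3.03 times, less than the 3.41 times of Per3. Nr1d2 ran from 29.3 to 69.5 CPM (median 41.2), with group means from 35.7 in Aro5 females to 49.3 in Aro5 males. Dbp ran from 10.2 to 35.5 CPM (median 22.3), and its group means from 18.3 in Aro0.5 males to 29.4 in Aro5 females. Nr1d1 overlaps Thra, the thyroid hormone receptor alpha gene, on the opposite strand, and whether the counting used strand is not given in the sources used here, so that reads of these genes may be mixed.

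The first comparison asked whether these transcripts moved with the time of dissection. With group means taken out, the slopes of Per3 and Clock on time were negative and that of Dbp positive, but none of the 10 slopes passed the test over all genes. Per3, a period gene, had a slope of -0.14 log2 per hour (SE 0.05, 95% interval -0.23 to -0.05, n = 64, p = 0.00362, adjusted p = 0.145, edgeR quasi-likelihood test with group means taken out). Its mean level was 15.9 CPM in the 2 pups taken before 10.00, 14.3 CPM in the 25 of the hour from 10.00, 13.6 in the 18 of the hour from 11.00, 13.3 in the 15 of the hour from 12.00 and 11.5 CPM in the 3 of the hour from 13.00. The single pup of 15.45, an Aro5 male, was at 9.89 CPM. The ranges of the fuller hours overlapped widely, and the lowest Per3 of all, 6.80 CPM, belonged to a pup of 10.47. Dbp and Clock did not move steadily over the same hours. In order, mean Dbp was 27.6, 20.9, 23.2, 24.9 and 20.2 CPM, with 28.5 in the pup of 15.45. Mean Clock was 58.9, 59.6, 56.4, 57.4 and 57.1 CPM, with 49.4 in that pup. These hourly means mix the groups.

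**Figure D1:**
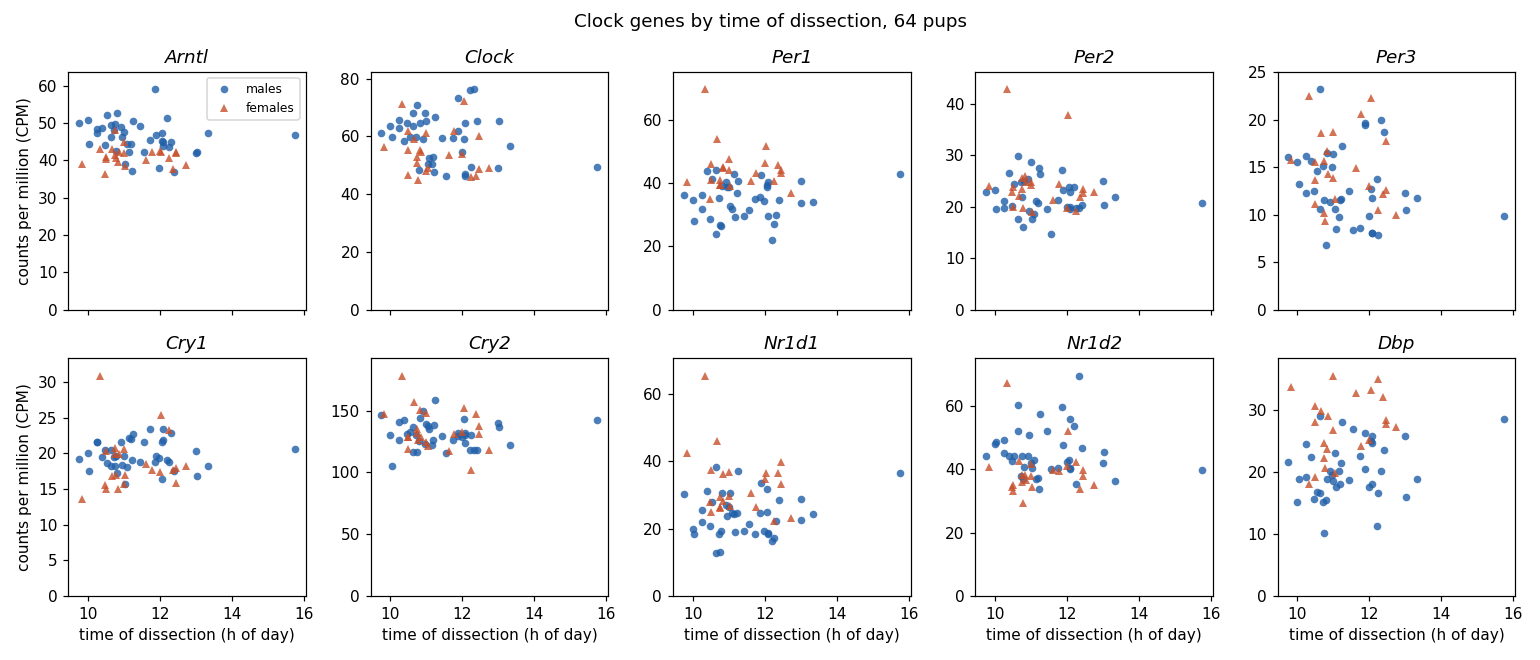
Level of each clock gene in CPM (y axis, from 0) against the time of dissection in decimal hours of the day (x axis) for 41 males (blue circles) and 23 females (orange triangles). The points of the hours from 10 to 13 overlap, a single male (labelled 15.45) lies at 15.75 decimal hours, and most females lie above most males for Per1, Nr1d1 and Dbp.

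Clock, one partner of the activating pair, had a slope of -0.06 log2 per hour (SE 0.02, n = 64, p = 0.0172, adjusted p = 0.196, edgeR). Dbp, the output gene, had a slope of 0.09 (SE 0.04, n = 64, p = 0.0361, adjusted p = 0.248). Arntl, the other partner, had -0.03 (SE 0.02, n = 64, p = 0.0876). The other 6 genes had slopes between -0.04 and 0.03 with unadjusted p of 0.22 or more. The 95% interval of Per1 was -0.04 to 0.07 and that of Cry2 -0.05 to 0.03.

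At the adjusted threshold of 0.05, edgeR called 0 of the 10 genes and 0 of 17367 genes tested (0%). At an unadjusted p under 0.05 it counted 3 of the 10 beside 3121 of all genes (18%), which is not read as a result about these genes. DESeq2 called 116 genes and none of the 10. The median slope of the 10 was -0.02, beside 0.00 for all genes tested. Without the Aro5 male of 15.45 the slope of Per3 was -0.12 (n = 63, p = 0.0232), that of Clock -0.05 (p = 0.11) and that of Dbp 0.07 (p = 0.175). Without the Aro5 male 117-4y, the earliest pup of the series at 9.45, 795 genes were called and Per3 among them, with a slope of -0.16 and an adjusted p of 0.0481.

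**Figure D2:**
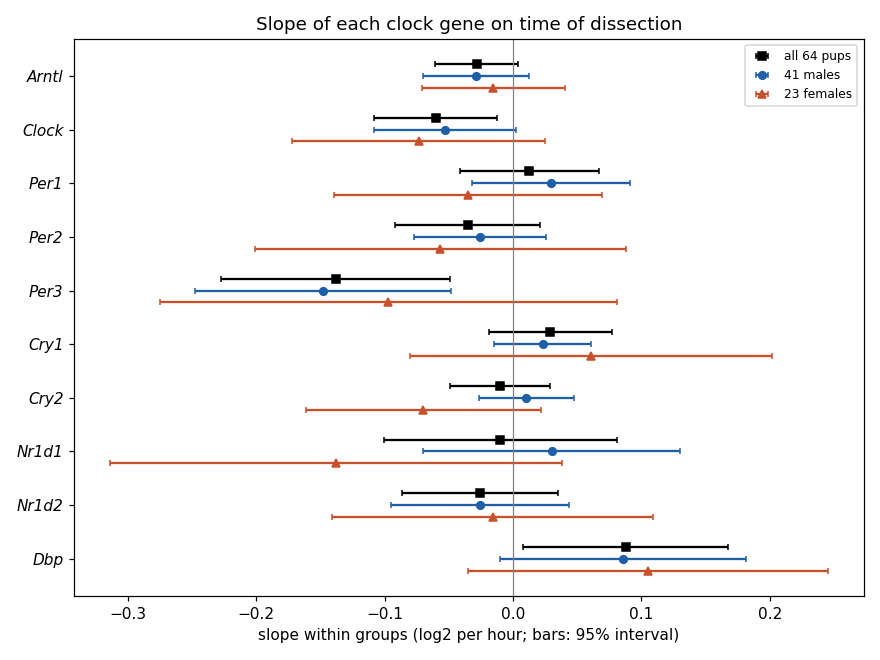
Slope of each clock gene on the time of dissection in log2 per hour (x axis), by gene (y axis), with 95% intervals, for all 64 pups (black), 41 males (blue) and 23 females (orange). The intervals of Per3 and Clock lie below 0 and that of Dbp above 0 for all pups, and every interval of the females includes 0.

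In the 41 males alone the slope of Per3 was -0.15 (SE 0.05, n = 41, p = 0.00615, adjusted p = 0.264) and it was the 1 gene of 10 with an unadjusted p under 0.05, beside 14.4% of 16802 genes. In the 23 females none of the 10 reached that level, beside 3.8% of 16992 genes, and Per3 had a slope of -0.10 (SE 0.09, n = 23, p = 0.297). The adjusted test called 0% of genes in either sex, by edgeR and by DESeq2. The slopes of females minus those of males included 0 for each gene, the largest being -0.17 for Nr1d1 (SE 0.11, n = 64, p = 0.137), with 0% of genes called and 2.37% under an unadjusted p of 0.05. For the slopes of exposed minus control pups 0% of genes were called, 3.82% were under an unadjusted p of 0.05, and none of the 10 was among them.

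Read as correlations over pups, with group means taken out of both values, Per3 had a Pearson's r of -0.40 with time (two-sided permutation test within groups, p = 0.00263, 0.0263 adjusted over the 10 relations computed) and a Spearman's rho of -0.33 (permutation p = 0.0144, 0.0691 adjusted). Clock had an r of -0.34 (permutation p = 0.0166, 0.083 adjusted) and a rho of -0.29 (p = 0.032 by permutation). Dbp had an r of 0.28 (permutation p = 0.0728) and a rho of 0.31 (p = 0.0207 by permutation). Arntl had an r of -0.27 (permutation p = 0.0662) and a rho of -0.34 (permutation p = 0.0148, 0.0691 adjusted). Leaving out the 2 pups farthest from the median time, the Aro5 male of 15.45 and a BPA5 male of 13.20, r was -0.29 for Per3 (permutation p = 0.0356, 0.303 adjusted), -0.21 for Clock (p = 0.124) and 0.22 for Dbp (p = 0.135). The adjusted call of Per3 thus rested on these pups. With 1 pup per litter, 44 pups, r was -0.42 for Per3 (permutation p = 0.0109, 0.108 adjusted), and inside the time window it was -0.28 (permutation p = 0.0832, 0.416 adjusted). In males r was -0.48 for Per3 (permutation p = 0.00243, 0.0243 adjusted) and -0.33 without the 2 farthest (permutation p = 0.0473, 0.236 adjusted), and in females it was -0.21 (permutation p = 0.398) and 0.04. The rho of Arntl in males was -0.47 (permutation p = 0.00378, 0.0283 adjusted) and -0.51 without the 2 farthest (permutation p = 0.00346, 0.0346 adjusted), and in females it was -0.03 (permutation p = 0.905).

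Other genes that could mark the hour or the handling of a pup were read from lists in the same fit, and those named from them were chosen after their values were seen. Of 17 further clock genes tested none was called, and Csnk1d, a kinase that phosphorylates PER proteins, had a slope of 0.02 (n = 64, unadjusted p = 0.0271). Of 11 glucocorticoid-responsive genes 0 were called, with 4 under an unadjusted p of 0.05, beside 18% of all genes. Of 12 activity-responsive genes 0 were called, with 1 under it, Arc, at a slope of 0.12 (n = 64, p = 0.0202). Of 6 temperature-responsive genes 0 were called and Dnajb1, a heat shock co-chaperone, had a slope of 0.04 (n = 64, p = 0.00111, adjusted p = 0.142). The 5 genes with the smallest p outside the clock list were Krtcap2 (slope 0.07), Trdmt1 (-0.14), Lama3 (-0.12), Sdf2 (0.06) and Pop5 (0.08), each with an adjusted p of 0.142.

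The second comparison set females against males. In control pups 3 of the 10 genes were called, beside 17.6% of 15763 genes called higher in females and 12.6% called lower. The count is therefore not read as a result about clock genes. In control pups Nr1d1, Per1 and Dbp were higher in the 10 females than in the 9 males. Nr1d1, which encodes the repressor REV-ERB alpha, was at 18.4, 19.2, 23.9 and 25.1 CPM in the CONF males and at 18.5, 19.9, 21.99, 24.7 and 25.7 CPM in the CONSC males. It was at 26.8, 33.2, 36.5, 39.8 and 46.2 CPM in the CONF females and at 22.2, 29.3, 34.7, 36.4 and 37.5 CPM in the CONSC females. Of the 10 females 9 lay above every male, and the difference was 0.68 log2 (SE 0.12, 1.60-fold, adjusted p = 0.000135, edgeR).

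Per1, a period gene, was at 29.7, 35.0, 38.8 and 39.5 CPM in CONF males and at 31.8, 31.9, 34.5, 36.2 and 40.2 CPM in CONSC males. In CONF females it was at 39.0, 43.0, 44.0, 51.6 and 54.0 CPM and in CONSC females at 39.5, 40.5, 44.9, 46.1 and 46.4 CPM. The groups overlapped by 2 females, and Per1 was 0.38 log2 higher in females (SE 0.07, 1.30-fold, adjusted p = 0.000398, edgeR). Dbp was at 18.7, 19.5, 22.6 and 25.8 CPM in CONF males, 15.2, 17.6, 19.1, 24.5 and 24.6 in CONSC males, 19.8, 27.8, 28.4, 29.8 and 33.3 in CONF females and 22.3, 23.6, 25.1, 30.6 and 35.0 in CONSC females. Every female lay above the male median of 19.5 CPM and 6 of 10 above every male, a difference of 0.44 log2 (SE 0.11, 1.36-fold, adjusted p = 0.00493, edgeR).

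**Figure D3:**
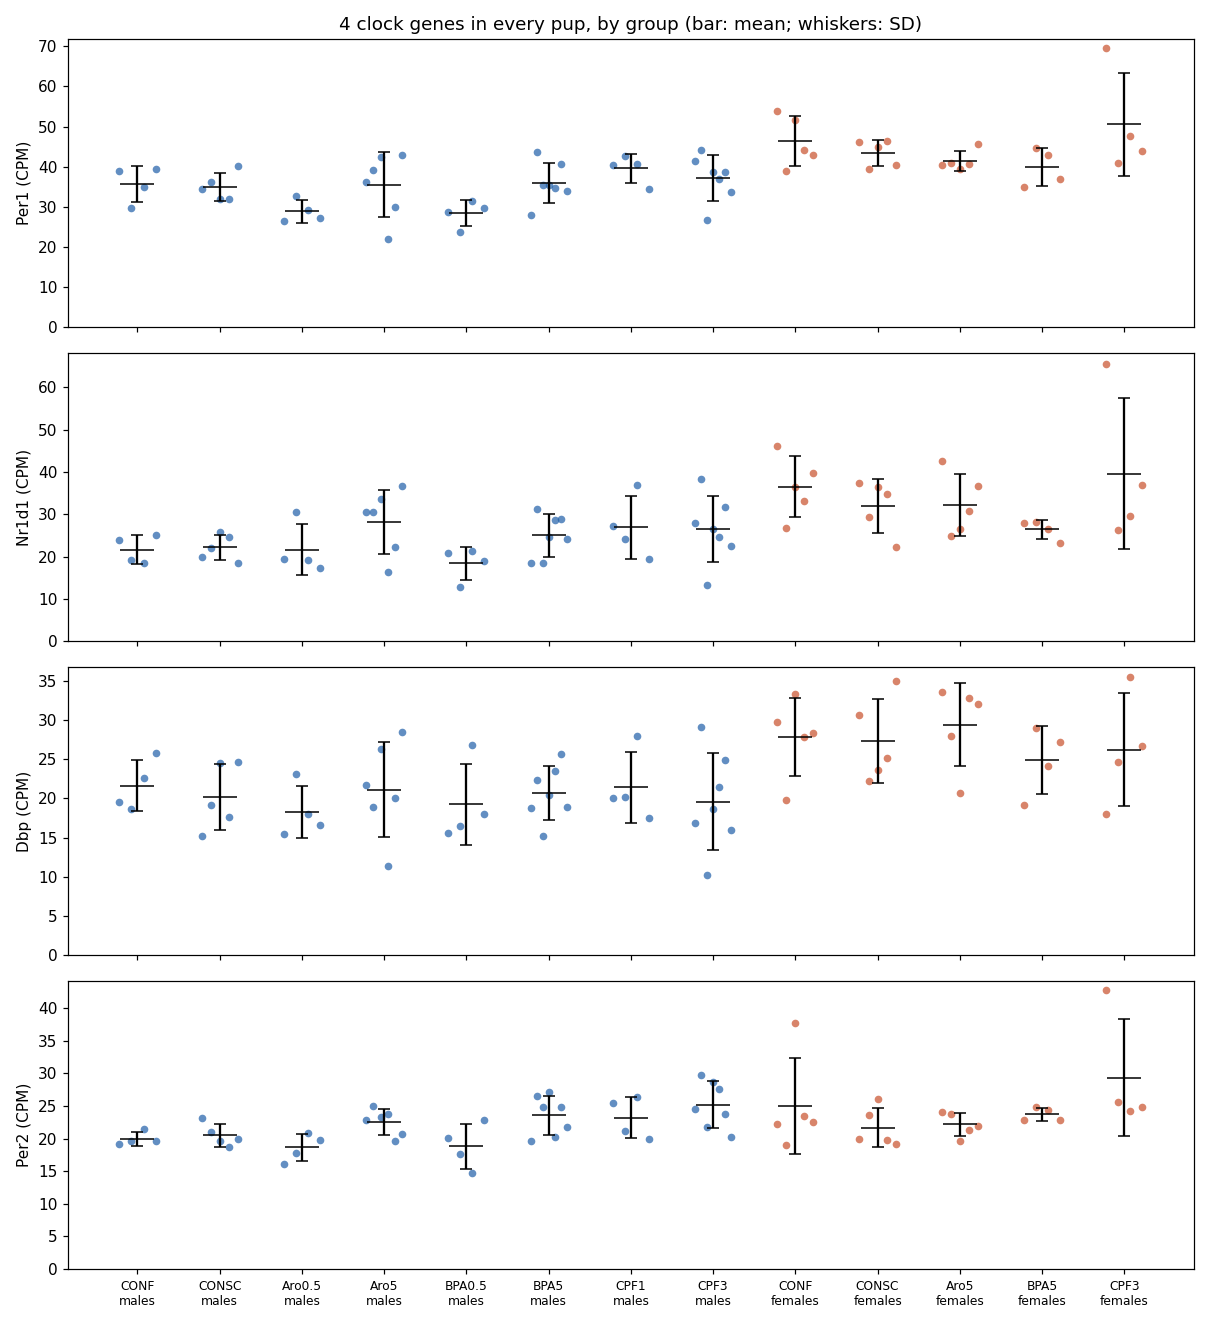
Levels of Per1, Nr1d1, Dbp and Per2 in CPM (y axes, from 0) in every pup of the 13 groups (x axis), with the mean (bar) and SD (whiskers) of each group, males in blue and females in orange. For Per1 and Dbp the mean of each of the 5 female groups lies above that of every male group, for Nr1d1 the mean of the BPA5 females (26.4 CPM) lies below that of the Aro5 males (28.3 CPM), and 1 CPF3 female stands at 69.5 CPM for Per1, 65.5 for Nr1d1 and 42.8 for Per2.

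Arntl went the other way, at 44.5 to 50.8 CPM in the 9 control males (median 46.3) and 38.6 to 48.2 in the 10 control females (median 42.1). All females but one lay below every male, yet the difference of -0.12 log2 (SE 0.05, adjusted p = 0.0509) missed the threshold in edgeR and passed it in DESeq2 (adjusted p = 0.0307). Per2 was 0.24 log2 higher in females (SE 0.10, adjusted p = 0.0914), and without CONF female N2-4x or CONSC female 9-1x it passed. Without CONF female N4-3x, at 37.8 CPM the highest of the control pups, it was 0.14 log2 higher (SE 0.07, adjusted p = 0.13). The remaining differences were 0.32 for Per3, -0.12 for Cry1, 0.09 for Cry2, -0.08 for Clock and -0.15 for Nr1d2, none past the threshold.

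The count of 3 higher in females stood beside 17.6% of 15763 genes called higher, and the count of 0 lower beside 12.6% called lower. The sexes thus differed in a large part of all genes, and the share of clock genes called was not tested against it. The median of the 10 differences was 0.16 log2, beside -0.02 for all genes. Sex and assay cannot be told apart here. The spelling of the library names came in more than one form, and the labels do not say what the form marks. Control females had libraries of either form, while control males shared a form but for a single library of CONF male N2-2y. The form was entered as a further term. With that form as a term the differences were 0.49 for Nr1d1, 0.30 for Per1 and 0.41 for Dbp, all still called. Among libraries of 1 form alone Nr1d1 was 0.51 higher (adjusted p = 0.0161) and Per1 0.33 higher (adjusted p = 0.0212), while Dbp was 0.42 higher with an adjusted p of 0.113.

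Thra, which overlaps Nr1d1, was 0.34 log2 higher in control females (SE 0.06, adjusted p = 0.000249), and how far reads are shared was not tested. In this comparison 17.6% of all genes were called higher in females and 12.6% lower, the shares beside the counts that follow. Of 12 activity-responsive genes 6 were called higher in control females and 1 lower, with a median of 0.47 beside -0.02 for all genes. Chosen from them after the values were seen, Junb, an immediate early transcription factor, was 1.73 log2 higher and Egr4 1.34 log2 higher. Among the further clock genes the kinase gene Csnk1e was called higher (0.18), and the kinase gene Csnk1d (-0.13) and the ubiquitin ligase subunit gene Fbxw11 (-0.11) were called lower. Of 4 blood cell markers 2 were called higher, and their summed level ran from 585 to 1288 CPM in control males and from 848 to 1439 CPM in control females. Of 3 endothelial markers 1 was called higher, and their summed level ran from 58.7 to 79.0 CPM in control males and from 83.9 to 107 CPM in control females. Over the 64 pups with group means taken out this sum had an r of 0.36 with Per1, 0.28 with Nr1d1, 0.28 with Dbp and -0.46 with Arntl. The part of the activity-responsive genes, of blood or of endothelial cells in the differences of Nr1d1, Per1 and Dbp was not tested.

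The higher-dose pups, 20 males and 13 females, gave a further set of libraries for the same question, with the chemical as a covariate. The form of the library names was not read for these females and was not a term here. Per1 was again called higher in females, by 0.31 log2 (SE 0.09, adjusted p = 0.0041), and so was Dbp, by 0.43 log2 (SE 0.12, adjusted p = 0.00497). Arntl was lower by -0.17 log2 (SE 0.05, adjusted p = 0.00604), and each of the 13 females lay below the male median of 47.5 CPM. Nr1d1 was 0.33 log2 higher (SE 0.14, adjusted p = 0.0505), with females from 23.3 to 65.5 CPM (median 28.2) and males from 13.2 to 38.4 CPM (median 27.3). With litter as a replicate block the Nr1d1 difference was 0.35 and passed (adjusted p = 0.0385), as it did in DESeq2 (adjusted p = 0.0405). The 2 genes called higher stood beside 20.3% of 16440 genes, and the 1 called lower beside 21.6%. Without CPF3 female 43-3x, Clock (-0.19, adjusted p = 0.0248) and Nr1d2 (-0.31, adjusted p = 0.00273) were also called lower in females, and Nr1d1 was at 0.19 (adjusted p = 0.21). Thra was 0.29 log2 higher in these females (adjusted p = 0.00105).

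The third comparison set each exposed group against the controls of its sex, 9 males or 10 females shared by all groups of that sex. No clock gene was called in any of the 9 comparisons by edgeR. The share of all genes called in males was 0.195% of 16393 for Aro5, 0.189% for BPA5, 0.159% for CPF3, 0.124% of 16139 for Aro0.5, 0.0434% for BPA0.5 and 0% for CPF1, and it was 0% of 16992 for each of the 3 female groups. At an unadjusted p under 0.05 the count of clock genes was 3 for Aro5 males beside 11.8% of all genes, 2 for BPA5 males beside 9.1%, 2 for CPF3 males beside 12.6%, 1 for Aro0.5 males beside 18.5%, 1 for BPA0.5 males beside 8.58% and 1 for CPF1 males beside 2%. In females it was 0 for Aro5 beside 3.23%, 0 for BPA5 beside 4.08% and 1 for CPF3 beside 8.79%. DESeq2 called 1 clock gene over the 9 comparisons, Per2 in CPF3 males.

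Per2, a period gene whose window above holds the E-box variant and the D-box, lay between 18.6 and 23.2 CPM in the 9 control males (median 19.7). In CPF3 males it ran from 20.3 to 29.8 CPM with a median of 24.5, and in BPA5 males from 19.6 to 27.1 with a median of 24.8. In Aro5 males it ran from 19.7 to 25.0 CPM with a median of 23.1. Each group overlapped the controls. The difference was 0.33 log2 in CPF3 males (SE 0.08, adjusted p = 0.0876 in edgeR and 0.0205 in DESeq2), 0.22 in BPA5 males (SE 0.08, adjusted p = 0.449) and 0.18 in Aro5 males (SE 0.08, adjusted p = 0.401). These comparisons share their controls. Without CPF3 male 40-3y, Per2 in CPF3 males was 0.37 log2 higher with an adjusted p of 0.0427.

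At the lower doses Per2 differed by 0.21 log2 in CPF1 males (SE 0.10, adjusted p = 0.997), by -0.05 in Aro0.5 males and by -0.07 in BPA0.5 males. In CPF3 females it was 0.36 log2 higher (SE 0.15, adjusted p = 0.51), and 0.21 higher (SE 0.09, adjusted p = 0.999) without the pups 43-3x and N4-3x. Of the 5 neocortex markers 3 had an unadjusted p under 0.05, beside 12.6% of all genes, and were higher in CPF3 males. The median was 0.45 log2, beside 0.00 for all genes. The part of these markers in the Per2 values was not tested. With the form of the library names as a term the Per2 difference in CPF3 males was 0.43 log2 (SE 0.18). All higher-dose males shared a form that control males had only in a single library, of CONF male N2-2y. The term therefore rests on that library and cannot separate form from exposure.

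**Figure D4:**
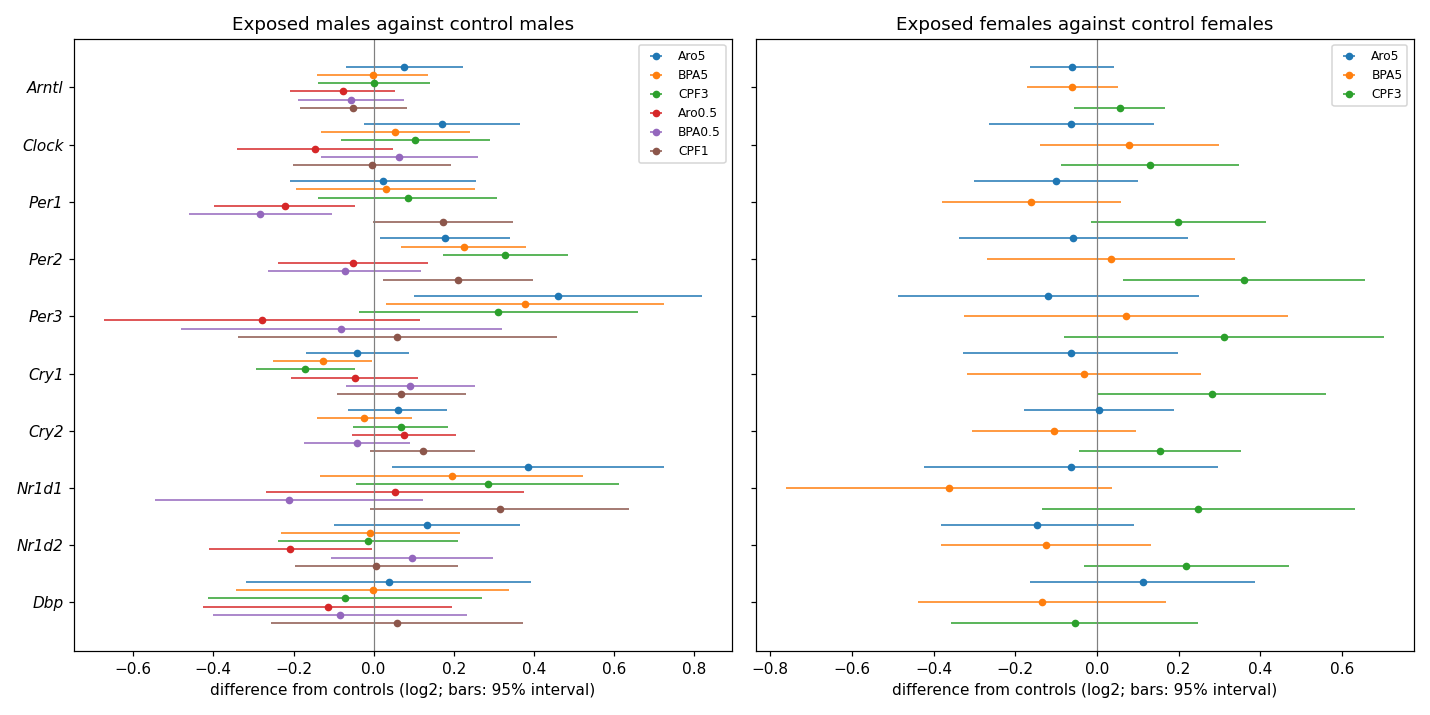
Difference of each exposed group from the controls of its sex in log2 (x axis) by clock gene (y axis) with 95% intervals, 6 groups of males in the left panel and 3 groups of females in the right. The interval of Per2 lies above 0 for Aro5, BPA5, CPF3 and CPF1 males and for CPF3 females, and that of Per1 lies below 0 for Aro0.5 and BPA0.5 males.

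Per3 was higher in Aro5 males by 0.46 log2 without passing the test (SE 0.18, adjusted p = 0.304), with values from 9.89 to 19.9 CPM against 8.04 to 16.2 in control males. Of the 5 neocortex markers 4 had an unadjusted p under 0.05, beside 11.8% of all genes, and were higher in Aro5 males. The summed level of the list ran from 394 to 639 CPM (median 495), against 205 to 510 CPM in control males. Over the 64 pups Per3 had an r of 0.31 with that sum, whose part in the Per3 values was not tested. This group held the earliest and the latest pup of the series. With time as a covariate the difference was 0.62 (adjusted p = 0.0637), and among pups of the 10.30 to 13.20 window it was 0.79 log2 and passed (adjusted p = 0.042), where 818 genes were called in place of 32. The window kept Aro5 males 115-14y, 116-6y, 120-1y and 120-2y, the last pair being littermates. It kept every CONF male, but of the CONSC males only 8-4y and 11-4y. With the form of the names as a term the Per3 difference was 0.01 (SE 0.37), which rests on that same control library and cannot separate form from exposure. In BPA5 males Per3 differed by 0.38 (adjusted p = 0.536).

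Per1 lay lower in the low-dose males, at 26.4 to 32.8 CPM in the 4 Aro0.5 males and 23.8 to 31.5 CPM in the 4 BPA0.5 males, against 29.7 to 40.2 CPM in the 9 controls. The differences were -0.22 (SE 0.09, adjusted p = 0.206) and -0.28 log2 (SE 0.09, adjusted p = 0.431), and both groups overlapped the controls. At the higher doses Per1 differed by 0.02 in Aro5 males and 0.03 in BPA5 males, with 95% intervals of -0.21 to 0.26 and -0.19 to 0.25. Doses were not tested against one another. Cry1, a repressor, was at -0.17 log2 in CPF3 males (SE 0.06, adjusted p = 0.307), and Nr1d1 at 0.39 log2 in Aro5 males (SE 0.17, adjusted p = 0.377).

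The 2 kinds of control were compared with each other within each sex. In males none of the 10 genes was called, and 0 were under an unadjusted p of 0.05, beside 0.013% of 15387 genes called and 0.988% under 0.05. DESeq2 called none of the 10 either. In females none was called beside 0% of 16618 genes, and 1 was under 0.05, beside 4.29%, which was Per3 at 16.6 CPM ± 4.42 (SD of 5 pups) in CONF and 12.3 CPM ± 2.69 (SD of 5 pups) in CONSC (0.45 log2, SE 0.19, adjusted p = 0.85, edgeR). In males Per3 was at -0.11 log2 in CONF against CONSC, with a 95% interval of -0.59 to 0.36. CONF males were dissected at a mean of 11.5 h and CONSC males at 10.7 h. The sign for Per3 turned with time as a covariate, to 0.35 (unadjusted p = 0.045, adjusted p = 0.47, edgeR). Clock was then at 0.23 log2 (unadjusted p = 0.0131, adjusted p = 0.39). The share of all genes under an unadjusted p of 0.05 in that fit is not given here. Inside the time window, which kept only 8-4y and 11-4y of the CONSC males, Per3 was at 0.43 (adjusted p = 0.974).

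Over the 64 pups, with group means taken out, the clock genes varied together in sets. Of 45 pairs, 19 had a permutation p of Pearson's r under 0.05 after adjustment over the 45 (two-sided, within groups), and all 19 were positive. One set held Per1, Nr1d1, Cry2 and Dbp, with an r of 0.78 between Per1 and Nr1d1, 0.72 between Nr1d1 and Cry2, 0.61 between Per1 and Cry2, 0.54 between Per1 and Dbp and 0.52 between Nr1d1 and Dbp. The Spearman's rho of Per1 and Nr1d1 was 0.71, and r was 0.73 without the 2 pups farthest from the median of Per1. Another held Clock, Per3 and Nr1d2, with an r of 0.76 between Clock and Per3, 0.75 between Clock and Nr1d2 and 0.67 between Per3 and Nr1d2. Each of these pairs except those with Dbp had a permutation p of 1e-05, the smallest that 100000 resamples can give.

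**Figure D5:**
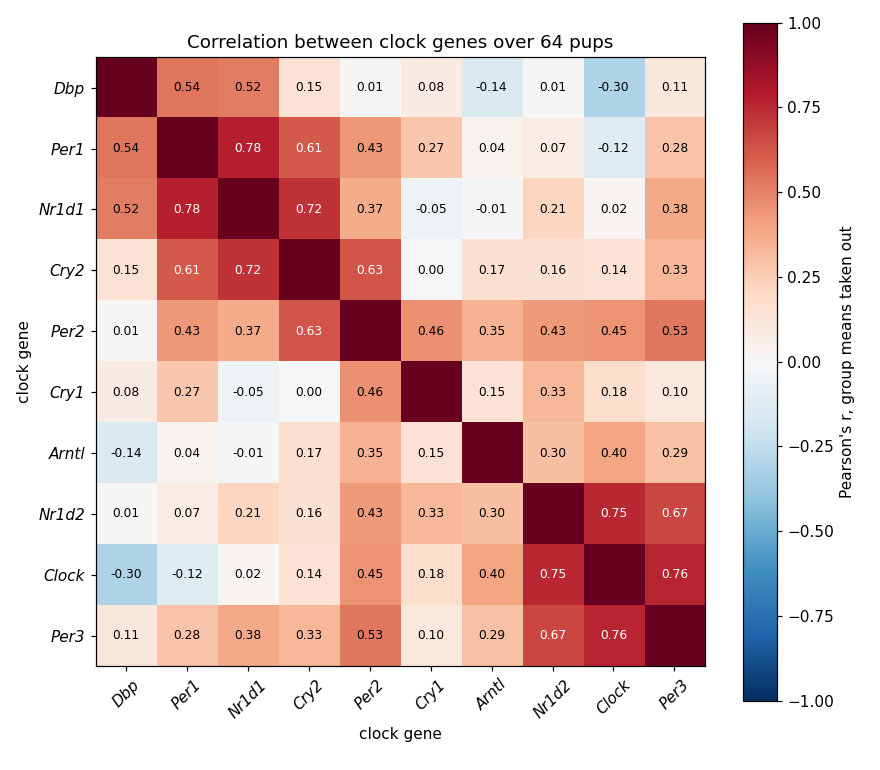
Pearson's r between each pair of clock genes over 64 pups on log2(CPM + 0.5) with group means taken out (both axes list the genes, the colour and number give r, from -1 in blue to 1 in red). The upper left block holds Dbp, Per1, Nr1d1 and Cry2 and the lower right block Nr1d2, Clock and Per3, with 0.78 and 0.76 as their highest values.

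Arntl and Clock, partners in the activating pair, had an r of 0.40 (permutation p = 0.00161, adjusted p = 0.00653). Arntl had an r of -0.01 with Nr1d1, whose product represses it, and of -0.14 with Dbp. The most negative pair was Clock and Dbp, at -0.30 (permutation p = 0.0373, adjusted p = 0.0759). Without the pups 43-3x and N4-3x 13 pairs passed, all among the 19, and r was 0.75 for Per1 and Nr1d1 and 0.74 for Per3 and Clock. Within males r was 0.79 and 0.69 for these pairs, and within females 0.75 and 0.90. In males 13 pairs passed, 12 of them among the 19, and the other was Clock and Dbp at -0.44 (adjusted p = 0.0475). In females 15 passed, 12 of them among the 19, while Nr1d1 and Dbp were at -0.12 with a rho of 0.02. The points share the library and its base of total counts.

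The same values were read against depth and against the summed level of 9 lists of marker genes, 100 relations in all. Dbp had an r of -0.68 with the thalamus markers (permutation p = 1e-05, adjusted p = 0.0005) and of -0.55 with those of hippocampal neurons (permutation p = 7e-05). Clock had an r of -0.56 and Nr1d2 of -0.52 with the endothelial markers, and Per1 had an r of 0.48 and Nr1d1 of 0.42 with the blood cell markers. The summed blood cell markers ran from 409 to 1944 CPM. The time of dissection had an r between -0.23 and 0.24 with these sums. The part of tissue makeup in the sets above was not tested.

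The genes most like a clock gene were found among 14702 genes with a mean of at least 1 CPM. Dbp was most like Kcnj4, an inward rectifier potassium channel gene (r = 0.87 over 64 pups), Srf, the serum response factor gene (r = 0.84), and RGD1564664 (r = 0.84). Per1 was most like Pcif1 (r = 0.86), LOC102550344 (r = 0.86) and Hps1 (r = 0.85), and Nr1d1 was most like Frmpd1 (r = 0.81), Nckipsd (r = 0.80) and Mgrn1 (r = 0.79). Arntl was most like Tbc1d14 (r = 0.73), Tcf7 (r = 0.70) and Pcf11 (r = 0.69). None of these 12 genes was another of the 10, and no r moved by more than 0.04 without the pups 43-3x and N4-3x.

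Brothers and sisters of the 18 litters with both sexes were set side by side, each value relative to its group mean. Their times of dissection went together (r = 0.73, permutation p = 0.0004). Per3 went the opposite way in brothers and sisters, with an r of -0.70 (rho -0.75, permutation p = 0.00104, 0.0062 adjusted over the 10 relations computed) and of -0.74 without the 2 litters farthest from the median. Clock did so too, with an r of -0.69 (rho -0.72, permutation p = 0.00124, 0.0062 adjusted) and -0.62 without the 2 farthest. The other 8 genes had an r between -0.33 and 0.26 with a permutation p of 0.175 or more. This relation was chosen after the data had been seen.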

How the data were processed

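RNA of the dorsal hippocampus was sequenced from TruSeq stranded mRNA libraries, and per the study's methods the authors aligned reads with STAR to Rnor_6.0 and deposited whole-number read counts per gene from featureCounts, 1 library per file. Versions and the strand setting are not given in the sources used here. No column was left without a sample (0).

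Counts were summed per pup and divided by the pup's total to give CPM. Slopes and differences were tested with edgeR 4.0.16 (R 4.3.3, TMM scaling, filterByExpr, quasi-likelihood test) over all genes, with Benjamini-Hochberg adjustment and a threshold of 0.05. Standard errors are the log2 change divided by the root of F, and 95% intervals are 1.96 SE on either side. Dissection times, labelled as hour and minute, were converted to decimal hours, and the CONF female with 2 labelled times was given their mean. Correlations used log2(CPM + 0.5) with group means removed and 100000 permutations within groups (scipy 1.17.1). Those between brothers and sisters were permuted freely over the litters with both sexes, not within groups. Alternatives were DESeq2 1.42.0, other scalings and filters, the time window, time or library name form as covariates, litter as block and leaving out each pup. Scripts were tested on simulated data.

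All 10 clock genes are named. Of the other lists the rule named genes passing the all-pup time fit, which were none, then the 5 with the smallest p and the 3 most like Dbp, Per1, Nr1d1 and Arntl. Genes and lists were chosen with earlier results of these data known, and not every gene of the further clock list is reported here. Pups are the replicates, and littermates in a comparison share a dam, so that p-values measure the spread between pups. Litters come from the labels, and brothers and sisters of 18 litters stand in both sex groups. The litter correlation over all genes was 0.0121 in the time fit, -0.137 in control pups and 0.0495 in higher-dose pups.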

Additional observations from a re-analysis of the deposited data

Results flagged for a closer look

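In 8 of 130 sets of 1 clock gene in 1 group, a single pup lay apart from the rest of its group by Dixon's criterion, where about 1 in 20, or 6.5, would be marked by chance. Per2 was at 42.77 CPM in CPF3 female 43-3x, with the next pup at 25.63, and at 37.76 CPM in CONF female N4-3x, with the next at 23.44. Cry1 was at 25.31 CPM in the same CONF female, with the next at 17.91. Per1 was at 45.62 CPM in Aro5 female 120-3x, with the next at 40.83, and Nr1d1 was at 30.56 CPM in Aro0.5 male 98-8y, with the next at 19.36. On the low side, Cry2 was at 116.2 CPM in CPF3 male 38-1y, with the next at 133.1, Clock was at 46.14 CPM in BPA0.5 male 73-4y, with the next at 63.79, and Arntl was at 38.57 CPM in CONF female N2-4x, with the next at 41.97.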

How the results depend on the processing

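Of 2830 values of single clock genes recomputed under another setting, 2714 stayed called, or stayed uncalled and moved by less than 1 SE, 38 passed the threshold newly, 1 lost it and 77 uncalled ones moved by 1 SE or more, and no called value changed sign. The 1 lost was Dbp between the sexes of control pups within 1 form of library names. The count of clock genes called rose from 0 to 1 for Aro5 males inside the time window (Per3) and for CPF3 males in DESeq2 (Per2). It rose from 3 to 5 between the sexes of control pups with libraries counted separately, and from 3 to 5 between those of higher-dose pups inside the window or without the pups that stand apart. In the fits above 17.6% of all genes were called higher and 12.6% lower in control females, and 20.3% and 21.6% in higher-dose females. The shares under the other settings are not given here, so these rises are not read as results about the clock genes. The count of clock genes whose r with time had a permutation p under 0.05 was 2, and it was 1 without the 2 pups farthest from the median time, without the Aro5 male of 15.45, inside the window and with 1 pup per litter, where the gene was Per3 except inside the window, where it was Arntl and Per3 had a permutation p of 0.0832. Leaving out each pup in turn gave 0 to 1 genes called for the time slope over all pups and for CPF3 males, 1 to 4 for the correlation with time, 3 to 4 between the sexes of control pups, 3 to 5 for higher-dose pups and 0 throughout in the other comparisons. With litter as a replicate block the counts were 0 for the time slope, 3 for control pups and 4 for higher-dose pups, where Nr1d1 was added. The block could not be fitted for slopes within 1 sex, where 2 litters in all gave a pair of pups of the same sex. The cause of these changes was not tested. Over all genes, the count called for Aro5 males was 32, and 818 inside the window, 159 with time as a covariate and 101 in DESeq2. The count was 31 for BPA5 males and 63 in DESeq2, 26 for CPF3 males and 82, 20 for Aro0.5 males and 269, 7 for BPA0.5 males and 39, and 0 for the time slope and 116. Between the sexes of control pups it was 4760, and 2796 with the name form as a covariate.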
